A study of Mus musculus with 9 samples.

Results

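The genes described here are 9 markers of cells that share skeletal muscle with its stem cells. They are the endothelial markers Pecam1, Cdh5, Kdr and Tie1, the leukocyte markers Ptprc and Cd68, the Schwann cell marker Sox10, and the fibro-adipogenic markers Pdgfra and Ly6a. They were picked by gene symbol, and all 9 were found once each among the 45706 genes of the deposited table. RNA sequencing was done on muscle stem cells (satellite cells, the resident precursors that repair adult muscle fibres) of wild-type C57Bl6 mice aged 12 to 20 weeks, with 3 samples from different animals at each of 3 stages. Freshly isolated cells were taken without culture. Proliferating cells had been cultured for 3 days or more with 2.5 ng/ml human FGF-2 and 20% FCS (fetal calf serum). Myotube samples, labelled as differentiating, had been moved from that medium to 2% horse serum for a further 6 days. No group carried a transgene or other allele, per the labels, and each sample was a bulk population. The surface markers or sort gates used in the isolation are not given in the sources used here.

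Skeletal muscle holds several resident cell types beside fibres and satellite cells. Capillary endothelium lines the vessels, macrophages and other leukocytes patrol the tissue, Schwann cells wrap the motor axons, and fibro-adipogenic progenitors fill the interstitium. Each is recognised by a small set of transcripts, so the levels of such transcripts are often read as a check on the purity of a satellite cell preparation. Pecam1 (CD31), Ptprc (CD45) and Ly6a (Sca-1) encode surface antigens that are commonly gated out when satellite cells are sorted.

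RefSeq promoter windows of GRCm38.p6, each 300 bases long and running from 250 bases before to 50 bases after a transcription start, were on hand for 5 of the 9 genes. The 4 printed here belong to the leukocyte pair and to a pair of endothelial receptor kinases, because the genes within each pair differed in level or in course over the stages. Capitals mark 2 motifs, searched on both strands. AGGAAG, which does not overlap the other motif, holds the core bound by ETS factors, a family that includes PU.1 of leukocytes and Erg of endothelium. Only the full AGGAAG was searched, so GGAA with other flanks, as in the Cd68 and Kdr windows, is not marked. CAGCTG is an E-box, the kind of site bound by MyoD.
Cd68, chr11:69666121-69666420, minus strand: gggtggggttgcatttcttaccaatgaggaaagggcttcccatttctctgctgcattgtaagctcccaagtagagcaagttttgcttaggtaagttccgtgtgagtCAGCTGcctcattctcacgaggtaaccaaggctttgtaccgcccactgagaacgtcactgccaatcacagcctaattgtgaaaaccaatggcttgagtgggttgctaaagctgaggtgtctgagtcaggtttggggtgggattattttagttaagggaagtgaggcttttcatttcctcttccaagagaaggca
Ptprc, chr1:138175256-138175555, minus strand: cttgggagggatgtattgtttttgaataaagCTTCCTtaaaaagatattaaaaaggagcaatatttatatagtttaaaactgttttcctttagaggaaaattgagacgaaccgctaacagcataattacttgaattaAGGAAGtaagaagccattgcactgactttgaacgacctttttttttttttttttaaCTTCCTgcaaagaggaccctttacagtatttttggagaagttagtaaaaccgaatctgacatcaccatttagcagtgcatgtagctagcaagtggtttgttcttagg
Tie1, chr4:118489800-118490099, minus strand: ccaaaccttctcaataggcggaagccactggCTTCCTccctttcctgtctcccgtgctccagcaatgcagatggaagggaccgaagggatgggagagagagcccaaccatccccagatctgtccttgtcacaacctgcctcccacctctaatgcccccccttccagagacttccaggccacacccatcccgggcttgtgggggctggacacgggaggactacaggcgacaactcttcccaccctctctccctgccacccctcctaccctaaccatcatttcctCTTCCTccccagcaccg
Kdr, chr5:75978406-75978705, minus strand: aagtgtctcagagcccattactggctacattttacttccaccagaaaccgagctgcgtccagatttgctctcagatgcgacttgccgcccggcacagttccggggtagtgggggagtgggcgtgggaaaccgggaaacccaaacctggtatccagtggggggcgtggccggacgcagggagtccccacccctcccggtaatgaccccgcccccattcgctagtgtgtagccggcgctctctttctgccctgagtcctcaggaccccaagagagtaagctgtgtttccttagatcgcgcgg
The Ptprc window held 3 matches to AGGAAG and the Tie1 window 2, while the Cd68 window held a single CAGCTG and the Kdr window neither motif. A second Ptprc start site, chr1:138175077-138175376, whose window is not printed, held 1 match to each motif, so CAGCTG was not particular to Cd68. Of the 32851 mouse promoter windows of this length, 35.4% held AGGAAG and 16.3% held CAGCTG.

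Values are the authors' scaled and rounded read counts per gene, called normalized counts, or units, here. From the spacing of the low values, 1 read was worth 0.748 to 0.871 units in the proliferating, 0.854 to 0.938 in the myotube and 1.04 to 2.18 in the freshly isolated libraries. Freshly isolated replicate 1 was the shallowest, with an estimated 12.0 M reads on genes against 19.3 to 24.3 M in the other 8 libraries, and a 0 in that library allows up to 6.54 units (3 reads, counting error only) against 2.25 to 3.16 in the others. The labelled cell type was borne out by Pax7, the transcription factor that defines satellite cells. It had 15700, 11694 and 12892 units in the freshly isolated, 3330, 2668 and 2556 in the proliferating and 1254, 1645 and 1192 in the myotube libraries. Myod1 and Myog were further checks of the stages. Myod1 had 5532, 6876 and 4938 units in freshly isolated, 20690, 21446 and 21302 in proliferating and 6955, 7315 and 6858 in myotube libraries. Myog had 1257, 62 and 218, then 2179, 9530 and 8749, then 37811, 33789 and 39734. Replicate 1 thus stood apart for Myog in the freshly isolated and the proliferating stage, and the cause was not tested. Of 14 myogenic markers examined, all passed the filter on low values.

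**Figure D1:**
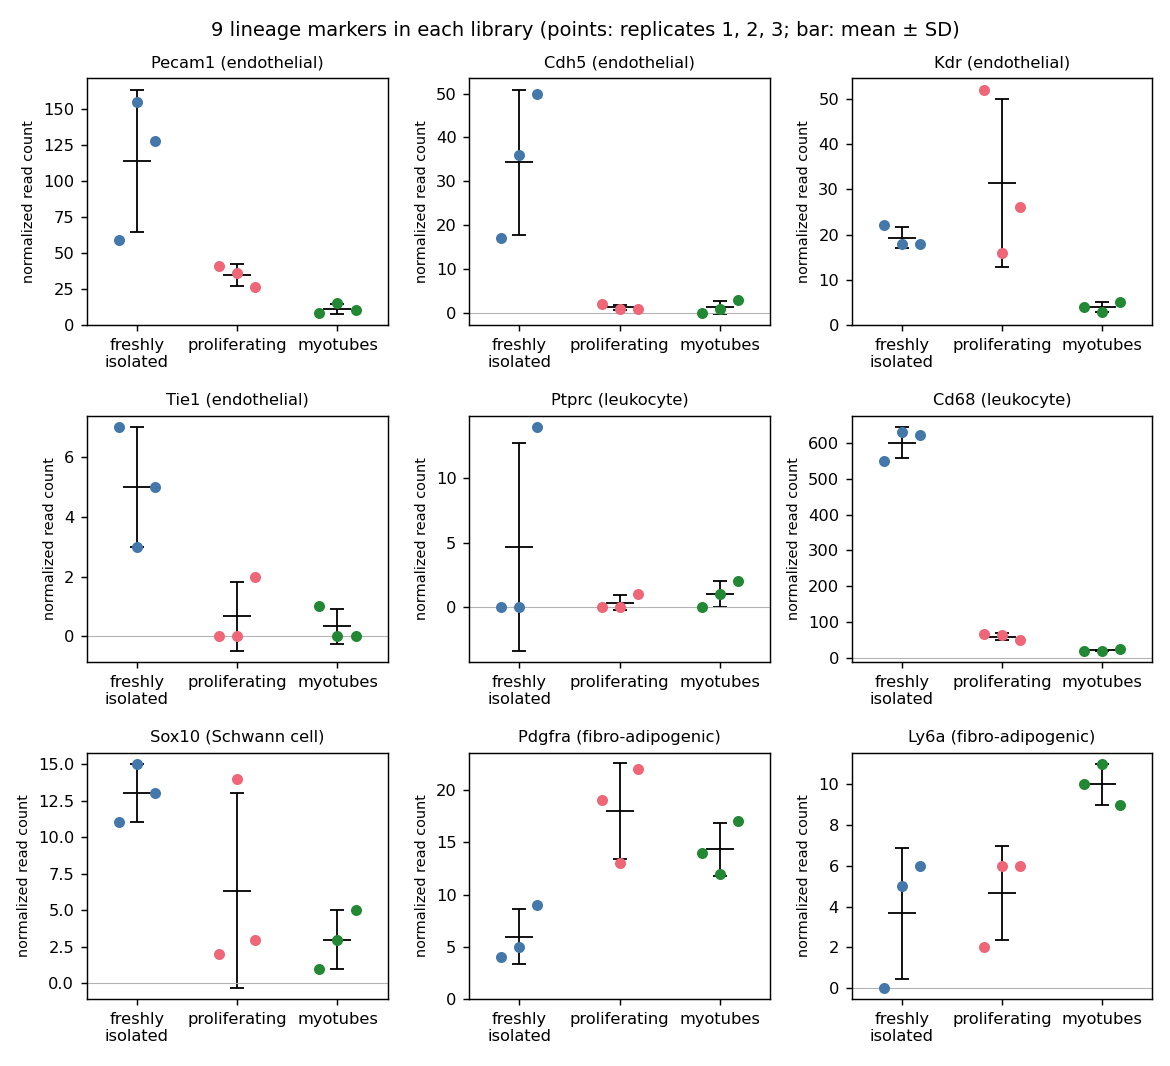
Normalized read counts (y axes, linear, a separate scale per gene) of the 9 markers in each library at the 3 stages (x axes), with points for replicates 1 to 3 from left to right and bars for the mean ± SD. Cd68 lay between 549 and 629 in freshly isolated cells, while Tie1, Ptprc and Ly6a stayed at or below 14 in every library.

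Across the 3 stages, 6 of the 9 markers reached 10 or more in at least 3 libraries and entered the limma model of all 17291 genes that did so. Tie1, Ptprc and Ly6a did not. In proliferating against freshly isolated cells, Pecam1, Cdh5 and Cd68 were called lower (3 of 6) and Pdgfra higher (1 of 6), where 35.7% and 37.6% of all genes tested were called lower and higher. In myotubes against proliferating cells Pecam1, Kdr and Cd68 were called lower (3 of 6, with 25.5% over all genes), and 0 of 6 were called higher by limma (28.6% over all genes), with 0 also at an unadjusted p below 0.05. In myotubes against freshly isolated cells 5 of 6 were called lower (37.3% over all genes) and Pdgfra higher (1 of 6, 40.2% over all genes). Cdh5 reached the filter through freshly isolated libraries only and Pdgfra through cultured libraries only, so their inclusion already required a high value there. Kdr and Sox10 reached 10 in no myotube library, so their inclusion favoured lower values in myotubes. These counts are therefore no evidence about the set. Pairs of comparisons share libraries.

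**Figure D2:**
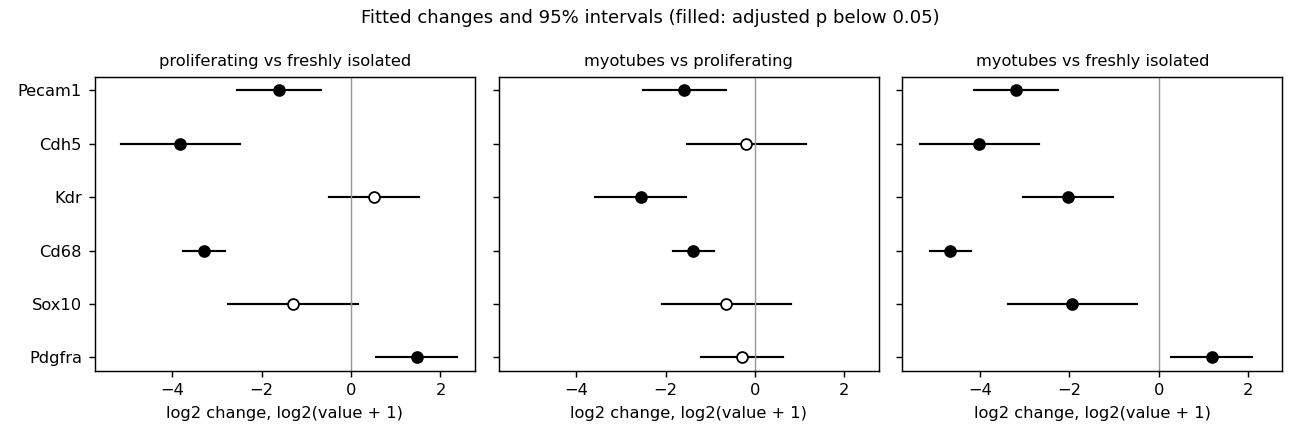
Fitted log2 changes on the log2(value + 1) scale (x axes) with 95% intervals for the 6 markers tested (rows) in the 3 stage comparisons (panels), where filled points had an adjusted p below 0.05. Cd68 had the narrowest intervals, and Pdgfra was the only marker with filled points right of 0.

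Pecam1 encodes an adhesion molecule of endothelial junctions, also carried by platelets and some leukocytes (chromosome 11, 106654217 to 106750628, GRCm38). It had 59, 155 and 128 units in freshly isolated, 41, 36 and 26 in proliferating and 8, 15 and 10 in myotube libraries. The stages did not overlap, and within the freshly isolated stage replicate 1 was the low library. Pecam1 averaged 34.3 ± 7.64 in proliferating and 114 ± 49.5 in freshly isolated cells (SD, n = 3 each), which was 3.06-fold lower on the log2(value + 1) scale (log2 change -1.62 ± 0.42 SE, adjusted p = 0.00549). It fell again to 11 ± 3.61 in myotubes, against 34.3 ± 7.64 in proliferating cells (log2 change -1.58 ± 0.42, adjusted p = 0.00929). In bulk samples, fewer cells of a type and less RNA per cell cannot be told apart.

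Cdh5 encodes VE-cadherin, the adherens junction cadherin of endothelium (chromosome 8, 104101625 to 104144511). It had 17, 36 and 50 units in freshly isolated, 2, 1 and 1 in proliferating and 0, 1 and 3 in myotube libraries. All cultured libraries lay at or below 3 units, which is the level of a few reads, and every freshly isolated library lay above them. The log2 change was -3.82 ± 0.60 in proliferating against freshly isolated cells (adjusted p = 0.000205) and -4.02 ± 0.60 in myotubes against freshly isolated cells (adjusted p = 0.000124). With so few reads in culture the size depends on the pseudocount, and with 10 in place of 1 the changes were -1.89 and -1.90. Without freshly isolated replicate 1 and proliferating replicate 1 the first was -4.44.

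Kdr encodes the main signalling receptor for VEGF (chromosome 5, 75932827 to 75978458). It was low in myotubes, and its proliferating and freshly isolated libraries overlapped. It had 22, 18 and 18 units in freshly isolated, 52, 16 and 26 in proliferating and 4, 3 and 5 in myotube libraries. Proliferating replicate 1 was the high library, and the other proliferating libraries lay on either side of the freshly isolated ones. The log2 change in proliferating against freshly isolated cells was 0.52 (95% interval -0.50 to 1.53, adjusted p = 0.323). Kdr fell in myotubes, to 4 ± 1 against 31.3 ± 18.6 in proliferating cells (log2 change -2.55 ± 0.45, adjusted p = 0.000852) and against 19.3 ± 2.31 in freshly isolated cells (log2 change -2.04 ± 0.45, adjusted p = 0.00198). With a pseudocount of 10 both falls kept their calls, at -1.47 and -1.07. No myotube library reached the filter value for Kdr, so its inclusion favoured a fall there.

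Tie1 encodes an orphan receptor kinase of endothelium that partners the angiopoietin receptor (chromosome 4, 118471191 to 118490061). It had 7, 3 and 5 units in freshly isolated, 0, 0 and 2 in proliferating and 1, 0 and 0 in myotube libraries. These are 3 to 5 estimated reads per freshly isolated library, and the gene was left out of the main model. In a fit of all genes with any value, its log2 change was -2.00 ± 0.57 in proliferating against freshly isolated cells (adjusted p = 0.0144) and -2.19 ± 0.57 in myotubes against freshly isolated cells (adjusted p = 0.00772).

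A wider endothelial list held 21 further genes, of which 11 passed the filter. In proliferating cells 8 were lower and 0 higher than in freshly isolated cells (0 also at an unadjusted p below 0.05), with a median log2 change of -2.39 beside 0.066 over all genes tested. In myotubes against freshly isolated cells 8 were lower and 1 higher (median -2.77, with 0.105 over all genes), and in myotubes against proliferating cells 4 were higher and 1 lower (median 0.38, with 0.038 over all genes). In the order of these comparisons, the shares lower and higher over all genes tested were 35.7% and 37.6%, 37.3% and 40.2%, and 25.5% and 28.6%. Of the 11, Flt1, Flt4 and Plvap passed the filter only through freshly isolated libraries and so had to be lower in culture, and the counts and medians are a description only. The list's summed level was 9582 to 10378 units in freshly isolated cells. It came mostly from Prox1, a transcription factor gene known from lymphatic endothelium, and Tek, the angiopoietin receptor gene. Prox1 had 7645, 6844 and 6900 units there and Tek 1815, 2190 and 2045, while Flt4 had 35, 13 and 16 and Lyve1 0, 4 and 5. Which cells carried the Prox1 and Tek transcripts was not tested. Eng, a TGF-beta co-receptor gene of endothelium, had 392, 395 and 283 units in freshly isolated cells, and Mmrn2, an endothelial matrix gene, 85, 78 and 47. Icam2, an adhesion gene of endothelium and leukocytes, had 59, 31 and 31, and Plvap, the gene of the fenestral diaphragm, 46, 47 and 22. Several other genes were near the detection limit. In freshly isolated cells Erg had 4, 4 and 1 units, Sox18 0, 4 and 9, and Cldn5 0, 4 and 7. Emcn, a sialomucin of capillaries and veins, had 0, 11 and 1 units in freshly isolated cells and 0 in all 6 cultured libraries, and the transcription factor gene Sox17 had at most 4 units in any library. Vwf, the von Willebrand factor gene, ran against the list, with 96, 114 and 85 units in myotubes against 22, 21 and 41 in freshly isolated cells (log2 change 1.83, adjusted p = 0.000568).

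Among the genes of the VEGF, angiopoietin and PDGF systems, 19 beside the markers were found and 18 passed the filter. In proliferating against freshly isolated cells 9 were higher and 6 lower (median log2 change 0.49). In myotubes against proliferating cells 2 were higher and 6 lower (median -0.31), and in myotubes against freshly isolated cells 8 were higher and 5 lower (median 0.56). Over all genes tested, the shares higher and lower were 37.6% and 35.7%, 28.6% and 25.5%, and 40.2% and 37.3% in the same order. Flt1 and Flt4 passed the filter only through freshly isolated libraries, and Angpt4 and Pdgfd only through cultured ones. The ligand gene Vegfa had 1507, 1289 and 1583 units in myotubes against 7881, 4679 and 4687 in freshly isolated cells (log2 change -1.94, adjusted p = 6.11e-06). Nrp2, which encodes a co-receptor of VEGF and semaphorins, rose in culture, with 2985, 2021 and 2269 units in proliferating against 39, 68 and 91 in freshly isolated cells (log2 change 5.24, adjusted p = 6.35e-08). Flt1, which encodes the decoy VEGF receptor, fell, with 3, 2 and 7 units in proliferating against 96, 65 and 40 in freshly isolated cells (log2 change -3.81, adjusted p = 4.72e-05).

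The leukocyte markers parted from each other. Ptprc encodes CD45, the phosphatase on nearly all nucleated blood cells (chromosome 1, 138062861 to 138175708). It had 0, 0 and 14 units in freshly isolated, 0, 0 and 1 in proliferating and 0, 1 and 2 in myotube libraries. A single library, freshly isolated replicate 3, held most of its reads, an estimated 13. The counts of 0 in freshly isolated replicates 1 and 2 allow up to 6.54 and 3.16 units. No comparison of Ptprc passed the threshold in the fit without a filter, where the adjusted p was 0.44 in proliferating against freshly isolated and 0.741 in myotubes against freshly isolated cells.

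Cd68 encodes a lysosomal glycoprotein abundant in macrophages (chromosome 11, 69664213 to 69666153). It was the highest of the 9 markers at each stage per length of exon. It had 549, 629 and 621 units in freshly isolated, 67, 66 and 50 in proliferating and 22, 21 and 25 in myotube libraries. The libraries of a stage lay close together and the stages did not overlap. Cd68 fell to 61 ± 9.54 in proliferating cells, against 600 ± 44.1 in freshly isolated cells, or 9.75-fold lower (log2 change -3.29 ± 0.21, adjusted p = 2.68e-07). It fell further to 22.7 ± 2.08 in myotubes, against 61 ± 9.54 in proliferating cells (log2 change -1.38 ± 0.21, adjusted p = 0.000275). No exon of another gene overlaps the 1257 exon bases of Cd68 in GENCODE vM21.

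Of 24 further leukocyte genes, 7 passed the filter, and 10 lay within the limit of 3 reads in all freshly isolated libraries. The macrophage gene Adgre1 and the pan-myeloid adaptor gene Tyrobp were listed at 0 in all 3, as were Nkg7, S100a9 and C1qa, and Cd52 and Cd53 had at most 1 unit. Lyz2, the lysozyme of macrophages and neutrophils, had 0, 4 and 8 units. The list summed to 318 to 398 units without Cd68 and Ptprc, and Cd79a, a B cell receptor subunit gene, gave 150, 163 and 165 of these, while the B cell marker Ms4a1 had 0, 2 and 0. Some other genes of the list were lower in culture, though not all of them at both cultured stages. Csf1r, the receptor for macrophage colony-stimulating factor, had 11, 13 and 10 units in proliferating against 111, 47 and 45 in freshly isolated cells (log2 change -2.35, adjusted p = 0.00189), and Cd79a had 3, 4 and 3 in proliferating cells (log2 change -5.22, adjusted p = 5.41e-07). Cd14, the lipopolysaccharide co-receptor gene of monocytes, had 0, 2 and 2 units in myotubes against 68, 35 and 27 in freshly isolated cells (log2 change -4.31, adjusted p = 0.000102). Its proliferating libraries, at 30, 8 and 14 units, overlapped the freshly isolated ones (log2 change -1.35, adjusted p = 0.073). Vav1, a signalling gene of blood cells, had 50, 13 and 4 units in freshly isolated cells and 0 in every cultured library, and Spi1, which encodes PU.1, had 11, 7 and 14 in freshly isolated cells. Neither was tested, since both missed the filter. Coro1a, a coronin gene of leukocytes, had 4, 26 and 25 units in freshly isolated cells. It had 18, 7 and 10 in proliferating and 6, 6 and 4 in myotube libraries, and was not called in any comparison. In proliferating against freshly isolated cells 2 of the 7 were lower and 1 higher (median log2 change -0.36), in myotubes against proliferating cells 2 were higher and 2 lower (median -0.92), and in myotubes against freshly isolated cells 3 were higher and 3 lower (median -1.28). Over all genes tested, 35.7% were lower and 37.6% higher, then 25.5% and 28.6%, then 37.3% and 40.2% in these comparisons. Of the 7, Cd79a passed the filter only through freshly isolated libraries, so it had to be lower in culture. Laptm5, Itgam and Mrc1 passed only through cultured libraries, so a rise from freshly isolated cells to at least 1 cultured stage was favoured by inclusion. Csf1r and Cd14 reached the filter value in no myotube library, which favoured a fall there. Laptm5, a lysosomal protein gene of blood cells, rose in culture, with 200, 158 and 179 units in proliferating against 0, 6 and 1 in freshly isolated cells (log2 change 6.22, adjusted p = 7.56e-06). Itgam, the integrin CD11b gene, was high in myotubes, with 223, 213 and 229 units against 2, 6 and 3 in proliferating cells (log2 change 5.67, adjusted p = 5.88e-06).

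Sox10 encodes the transcription factor that specifies Schwann cells and other neural crest derivatives (chromosome 15, 79154908 to 79165240). It had 11, 15 and 13 units in freshly isolated, 2, 14 and 3 in proliferating and 1, 3 and 5 in myotube libraries. Proliferating replicate 2 lay inside the freshly isolated range, and the other cultured libraries lay below it. In proliferating against freshly isolated cells the log2 change was -1.30 (95% interval -2.75 to 0.15, adjusted p = 0.0938), and without proliferating replicate 2 it was -2.00 (adjusted p = 0.0112). Sox10 was lower in myotubes, with 3 ± 2 units against 13 ± 2 in freshly isolated cells (log2 change -1.94 ± 0.65, adjusted p = 0.019). That call was lost without freshly isolated replicate 2 (adjusted p = 0.0508) or myotube replicate 1 (adjusted p = 0.0799), and with a pseudocount of 10 the change was -0.83 (adjusted p = 0.0139). Sox10 also reached the filter value in no myotube library, so its inclusion favoured a fall there.

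Of 14 further Schwann cell genes, 9 passed the filter. Of these, 7 were lower and 1 higher in proliferating against freshly isolated cells (median log2 change -1.73), in myotubes against freshly isolated cells 8 were lower and 1 higher (median -1.79), and in myotubes against proliferating cells 3 were higher and 0 lower by limma (1 at an unadjusted p below 0.05; median 0.09). Over all genes tested, the shares lower and higher were 35.7% and 37.6%, 37.3% and 40.2%, and 25.5% and 28.6% in the same order. The sum of the list was led by genes with other known sites of expression. Egr2, a zinc finger factor of myelination that is also an immediate early gene, had 2527, 2191 and 1898 units in freshly isolated libraries, and Pmp22, a membrane protein gene of myelin and many growth-arrested cells, had 1490, 1557 and 1699. Cdh19, a cadherin gene of Schwann cell precursors, and Gfap, an intermediate filament gene of glia, had at most 2 units there. Erbb3, the neuregulin receptor gene, was the riser, with 3670, 3980 and 3995 units in myotubes against 81, 75 and 87 in freshly isolated cells (log2 change 5.57, adjusted p = 9.52e-08), while Sox10 was lower in the same libraries.

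Pdgfra encodes the PDGF receptor by which fibro-adipogenic progenitors are usually recognised (chromosome 5, 75152292 to 75198215). It had 4, 5 and 9 units in freshly isolated, 19, 13 and 22 in proliferating and 14, 12 and 17 in myotube libraries. Every cultured library lay above every freshly isolated library, by a few estimated reads at the nearest. Since it passed the filter only through cultured libraries, a difference in this direction was built into its inclusion. Pdgfra averaged 18 ± 4.58 units in proliferating cells and 6 ± 2.65 in freshly isolated cells (log2 change 1.47 ± 0.41, adjusted p = 0.0078, and 0.81 with a pseudocount of 10). It averaged 14.3 ± 2.52 in myotubes and 6 ± 2.65 in freshly isolated cells (log2 change 1.18 ± 0.41, adjusted p = 0.0219). The call in myotubes was lost without freshly isolated replicate 2 (adjusted p = 0.0512), myotube replicate 1 (0.0553) or myotube replicate 3 (0.0766), without a filter (0.0623) and with scaling to a common upper quartile (0.101). Of the 10024 exon bases of Pdgfra, other genes overlap 30 on its own strand and 622 on the opposite strand, so a share of its few reads is uncertain.

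Ly6a encodes Sca-1, a lipid-anchored surface antigen of fibro-adipogenic progenitors and endothelium in mice (chromosome 15, 74994877 to 74998031). It had 0, 5 and 6 units in freshly isolated, 2, 6 and 6 in proliferating and 10, 11 and 9 in myotube libraries. The myotube libraries lay above all others, at 10 to 13 estimated reads each. In the fit without a filter the log2 change was 1.66 in myotubes against freshly isolated cells (95% interval -0.05 to 3.37, adjusted p = 0.105), and 0.60 in proliferating against freshly isolated cells (95% interval -1.10 to 2.31, adjusted p = 0.563). Its counts are few and uncertain, and whether reads of Ly6a were shared with related genes of its family was not tested. Of 14 other Ly6 family genes, 3 passed the filter, with 1 lower and 0 higher in proliferating against freshly isolated cells (0 also at an unadjusted p below 0.05; median -0.90), 1 higher and 2 lower in myotubes against proliferating cells (median -1.08) and 2 lower and 0 higher in myotubes against freshly isolated cells (0 also at an unadjusted p below 0.05; median -1.33). In the same order, 35.7%, 25.5% and 37.3% of all genes tested were lower and 37.6%, 28.6% and 40.2% higher. Ly6e, the broadly expressed member, had 118, 117 and 104 units in myotubes against 242, 284 and 338 in freshly isolated cells, and Ly6c1, a marker of endothelium and monocytes, had at most 11 units in any library.

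A wider fibro-adipogenic list held 21 further genes, of which 16 passed the filter. Dpt, Pi16, Dcn and Cxcl14 did so only through freshly isolated libraries and so had to be lower in culture. In proliferating against freshly isolated cells 11 were lower (35.7% over all genes) and 0 higher by limma (0 also at an unadjusted p below 0.05; median log2 change -2.45), in myotubes against freshly isolated cells 11 were lower and 2 higher (median -1.73), and in myotubes against proliferating cells 5 were higher and 5 lower (median 0.16). In the order of these comparisons, the shares lower over all genes were 35.7%, 37.3% and 25.5%, and the shares higher 37.6%, 40.2% and 28.6%. The freshly isolated libraries held abundant transcripts of several matrix genes of this list while Pdgfra stood at 4 to 9 units. Dpt (dermatopontin) had 2449, 3554 and 3249 units there, Col3a1 (a fibrillar collagen chain) 18751, 7414 and 10271, Dcn (the proteoglycan decorin) 405, 840 and 1006, and Col15a1 (a basement membrane collagen chain) 6624, 4007 and 4475. Lum, the proteoglycan lumican, had 0, 31 and 44, and Mfap5 and Dpp4, markers of interstitial progenitors, had at most 9 units in these libraries. Other genes of the list ranged widely there. Cd248 had 7, 15 and 10 units and Pi16 13, 24 and 31, while Hic1 had 336, 248 and 275 and Thy1 841, 463 and 534. The list without Pdgfra and Ly6a summed to 24702 to 40854 units in freshly isolated, 9194 to 9659 in proliferating and 6839 to 9439 in myotube libraries. Its part in the changes of the markers was not tested.

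**Figure D3:**
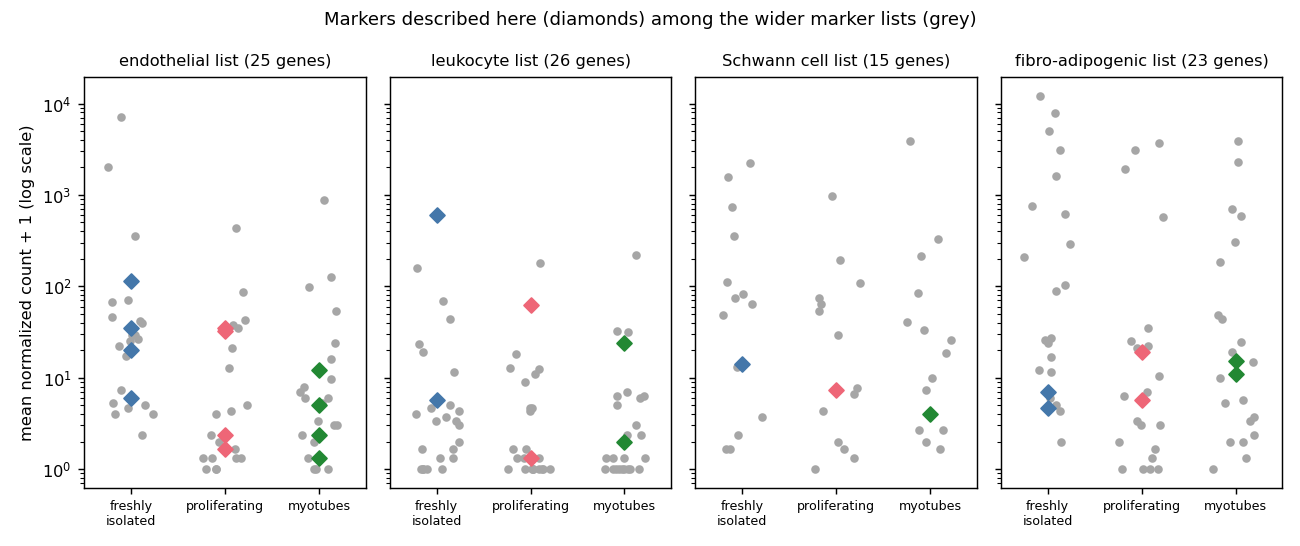
Mean normalized count + 1 (y axis, log scale) of each gene of 4 wider marker lists (panels) at the 3 stages (x axis), with coloured diamonds for the markers described here and grey points for the other genes of the list. Cd68 is the top point of the leukocyte panel in freshly isolated cells, and Pdgfra and Ly6a lie in the low part of the fibro-adipogenic panel.

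Levels of different genes were compared per kb of exon, using GENCODE vM21 exon lengths. In freshly isolated cells Cd68 stood at 477 ± 35.1 units per kb, which was 20.8% of the level of Pax7 (2292 ± 351). Pecam1 followed at 18.3 ± 7.95 (0.799% of Pax7), then Cdh5 at 8.17 ± 3.94, Sox10 at 4.26 ± 0.656, Ly6a at 3.04 ± 2.67, Kdr at 2.14 ± 0.256, Tie1 at 1.02 ± 0.407, Pdgfra at 0.599 ± 0.264 and Ptprc at 0.255 ± 0.441. Taking the sum of both SDs as the spread, Cd68 and Pecam1 differed by more than it, as did Kdr and Tie1. All other neighbours in this order, from Pecam1 and Cdh5 to Pdgfra and Ptprc, differed by less. In proliferating cells the order began with Cd68 (48.5 ± 7.59 units per kb), Pecam1 (5.51 ± 1.23), Ly6a (3.87 ± 1.92) and Kdr (3.47 ± 2.06), and the last 3 were within their spread of each other. In myotubes Cd68 stayed first and was followed by Ly6a (8.30 ± 0.830), with every other marker at or below 1.77 units per kb. Pax7 itself was at 487 ± 71.4 units per kb in proliferating cells and 233 ± 41.9 in myotubes, so a percentage of Pax7 does not carry across stages.

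**Figure D4:**
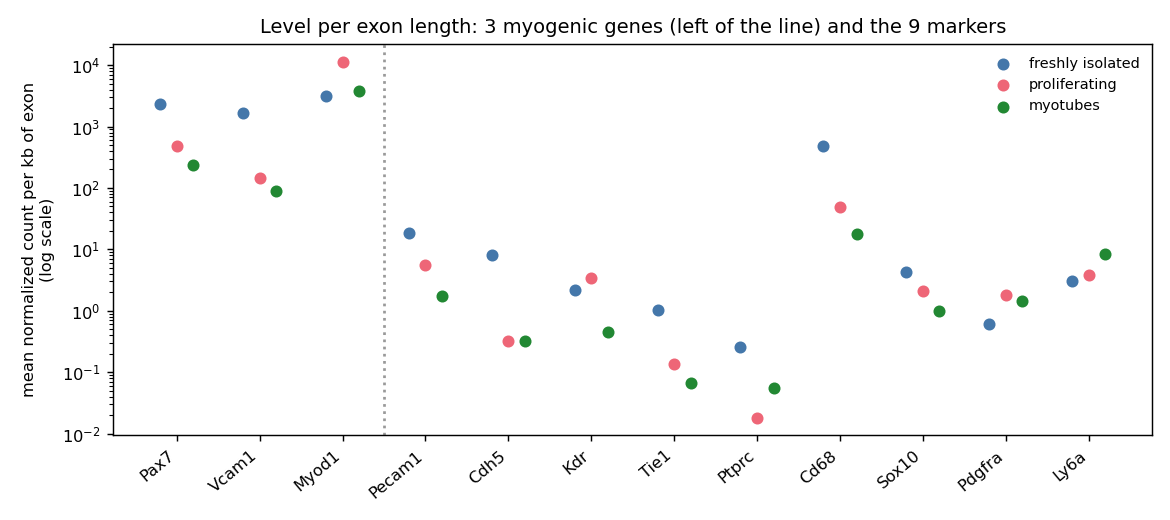
Mean normalized count per kb of exon (y axis, log scale) for Pax7, Vcam1 and Myod1 (left of the dotted line) and the 9 markers (right), with a point per stage. Cd68 at 477 units per kb in freshly isolated cells lies nearest to the myogenic genes, and Ptprc lies lowest at each stage.

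Summed over the 9 markers, the libraries held 669, 866 and 864 units in freshly isolated, 185, 152 and 137 in proliferating and 60, 67 and 76 in myotube cells. Cd68 made up 71.9% to 82.1% of the freshly isolated sums. Without it the other 8 markers came to 120, 237 and 243 units in freshly isolated, 118, 86 and 87 in proliferating and 38, 46 and 51 in myotube libraries, so that freshly isolated replicate 1 lay level with proliferating replicate 1. Within the freshly isolated stage replicate 1 was the lowest library for Pecam1, Cdh5, Cd68, Sox10, Pdgfra and Ly6a and the highest for Kdr and Tie1. This library also had the fewest reads, and the part of depth in these differences was not tested.

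The genes most like each tested marker were sought by Pearson correlation of log2(value + 1) over the 9 libraries, among 10866 other protein-coding genes with a mean of at least 100 at some stage. With 3 stages and 3 libraries each, such a correlation mostly restates the order of the stages. Cd68 was closest to Klf6 (r = 0.999), Kdm6a (0.998) and Sik3 (0.998), and Pecam1 to Mllt10 (0.991), Cables2 (0.986) and Avl9 (0.984). Cdh5 was closest to Hdx (0.990), Serpine3 (0.984) and Ikbke (0.984). For Kdr the nearest were Dab2ip (0.971), Mfge8 (0.970) and Adam15 (0.967), and for Pdgfra Usp30 (0.967), Slc38a6 (0.965) and Slc8a1 (0.963). Sox10 had looser neighbours, Vwa8 (0.892), Tollip (0.884) and Ing3 (0.881). None of these 18 genes was in any of the marker lists. Many listed genes had no stage mean of 100 and could not appear, so this absence says little about the markers.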

How the data were processed

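RNA was sequenced from 9 samples of mouse satellite cells. Per the labels' protocols, 100 ng of total RNA was depleted of ribosomal RNA and made into stranded total RNA libraries. Per the submitters' processing notes, STAR 2.4.0a, featureCounts 1.4.5-p1 and the builds mm10 and GRCm38 were used. The deposited score values are read counts per gene scaled between libraries by the authors and rounded to whole numbers; the tool of that scaling and the strand setting of the counting are not given in the sources used here. Columns were matched to samples by stage prefix and number, the Q columns to freshly isolated cells by elimination.

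A limma 3.58.1 model with a mean-variance trend (R 4.3.3) was fitted to log2(value + 1) in all 9 libraries, for 17291 genes that reached 10 in 3 or more libraries, with Benjamini-Hochberg adjustment and a threshold of 0.05. The count test foreseen for raw counts was not used, because the values are scaled. Figures used Python 3.11.15 with matplotlib 3.10.9. Lists were endothelial, leukocyte, Schwann cell, fibro-adipogenic, pericyte or smooth muscle, erythroid, platelet, tenocyte, adipocyte, myogenic, VEGF, angiopoietin and PDGF system, and Ly6 family; 1 listed symbol, Vegfd, was not matched. The members and lists were chosen with earlier results of these data known. Genes outside the 9 were named by their mean at a stage (the highest 4 of a list in freshly isolated, 2 in proliferating and 2 in myotube libraries), by the 2 largest called rises of a list in a comparison, or by likeness to a marker; marker genes near 0, Flt1, Dcn, Kcnj8 and others outside these ranks were chosen after their values were seen. Positions and exon lengths come from GENCODE vM21 (GRCm38), to which 45143 genes matched. The model was tested on simulated data. The alternatives tried are scaling, pseudocount, filter, model settings, the replicate block and leaving out libraries.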

Additional observations from a re-analysis of the deposited data

How the results depend on the processing

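In each comparison 22 alternatives were run. For the 6 tested markers, 371 of the changes kept direction and side of the threshold, 7 lost the call, 2 gained it, 2 changed sign and 2 became exactly 0. The marker counts moved in few settings. With 50 or more in at least 3 libraries, 0 markers were higher in proliferating against freshly isolated cells, and 0 were higher and 2 lower in myotubes against freshly isolated cells, since markers below that level were not tested. The count of 1 marker higher in myotubes against freshly isolated cells (Pdgfra) became 0 with no filter and with a common upper quartile, and ranged from 0 to 1 when a library was left out. The fall of Sox10 in proliferating against freshly isolated cells passed the threshold with a common upper quartile (adjusted p = 0.0477). Cdh5 in myotubes against proliferating cells had -0.19, ranged from -0.69 to 0.31 when a library was left out, and became 0 without proliferating replicate 1 (alone or with freshly isolated replicate 1) and 0.31 without myotube replicate 1. Sox10 in the same comparison had -0.64, ranged from -1.09 to 0.07, and became 0.07 without proliferating replicate 2. Myod1 in myotubes against freshly isolated cells had 0.30 and became -0.14 with a common upper quartile. The causes were not tested. Scaling to a common upper quartile moved the median of all genes by -0.456 in that comparison. In proliferating against freshly isolated cells it moved the median by -0.288, and scaling to a common total moved it by 0.302. A pseudocount of 10 gave Pecam1 a change of -2.48 in myotubes against freshly isolated cells, with -3.19 at a pseudocount of 1. Deviations of same-numbered libraries correlated between -0.034 and 0.027, and those of differently numbered libraries between -0.058 and 0.059. No pairing by replicate number was seen, but such correlations cannot show that no animal was shared, and the labels do not say what the numbers mark. A replicate block gave 6446 genes higher and 6117 lower in proliferating against freshly isolated cells, 4843 and 4245 in myotubes against proliferating and 6916 and 6395 in myotubes against freshly isolated cells, with marker counts of 1 and 3, 0 and 3, and 1 and 5. Values of a few reads (Tie1, Ptprc, Ly6a, and Cdh5 in culture) are limited by depth.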

Other observations

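Markers of other neighbouring cells were also examined. Kcnj8, Gp9, Gp1bb and Cfd, and Calcr of the myogenic list, passed the filter only through freshly isolated libraries and so had to be lower in culture. Of 12 pericyte or smooth muscle genes 10 passed the filter, with 2 higher and 4 lower in proliferating against freshly isolated cells (median log2 change -0.62), 6 higher and 2 lower in myotubes against proliferating cells (median 1.14) and 3 higher and 2 lower in myotubes against freshly isolated cells (median -0.12). Kcnj8, a potassium channel gene of pericytes, had 2, 2 and 0 units in proliferating against 72, 41 and 28 in freshly isolated cells. Acta2, smooth muscle actin, had 61639, 60374 and 60888 units in myotubes against 3144, 1567 and 2029 in freshly isolated cells. Of 14 myogenic markers, 3 were higher and 9 lower in proliferating against freshly isolated cells, 4 higher and 8 lower in myotubes against proliferating cells and 3 higher and 9 lower in myotubes against freshly isolated cells. Over all genes tested, the shares higher and lower in these comparisons were 37.6% and 35.7%, 28.6% and 25.5%, and 40.2% and 37.3%. The same shares apply to every list of this section.

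Red cell transcripts were near the detection limit. The globin genes Hba-a1, Hba-a2, Hbb-bs and Hbb-bt had at most 5 units in any library, and Alas2, the enzyme gene of haem synthesis in red cells, was the single erythroid gene of 6 that passed the filter, with 96, 53 and 50 units in proliferating against 15, 20 and 11 in freshly isolated cells. Of 5 platelet genes 3 passed and were lower in proliferating and in myotube than in freshly isolated cells. Itga2b, the integrin CD41 gene, had 16, 16 and 17 units in proliferating against 444, 328 and 328 in freshly isolated cells, while the platelet chemokine genes Pf4 and Ppbp had at most 1 unit in any library. Of 4 tenocyte genes 2 passed, with 1 higher and 0 lower in proliferating against freshly isolated cells (0 lower also at an unadjusted p below 0.05). Scx, the tendon transcription factor gene, had 4061, 3104 and 4071 units in myotubes against 118, 108 and 92 in freshly isolated cells, while Tnmd, the tendon membrane protein gene, had at most 6 units. Of 6 adipocyte genes 2 passed, Cfd and Cidec, and both were lower in each cultured stage than in freshly isolated cells, while Adipoq, the adiponectin gene, had at most 5 units in any library.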
